A study of Homo sapiens with 6 samples.

Results

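Actin and the proteins that bind it were followed through 10 genes: the actins ACTB and ACTG1, the monomer-binding proteins PFN1, CFL1, TMSB4X and TMSB10, the Arp2/3 subunits ARPC2 and ARPC3, the filament-binding protein COTL1 and the myosin light chain MYL6. The genes were chosen by name, and all their transcripts in the human GENCODE annotation (release 44, hg38) were looked up by identifier. Of 125 annotated transcripts, 64 were listed in the matrices, among 46484 human transcripts and 12472 named human genes in all. Counts in human cells were found on 50 of the 64, in all 5 libraries on 20, and in a single library on 9.

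The series mixed a human and a mouse line, labelled JJN3 and 5TGMG1 myeloma cells (the study's text has 5TGM1 for the mouse line), with no other treatment than the number of PCR cycles. Libraries were read on nanopore instruments, which can read whole cDNA molecules. In these counts 1 molecule was still often counted on several transcripts of a gene, as given below. Of 6 samples, 5 held counts: Drop-seq at 25, 30 and 35 cycles, with 1000, 500 and 500 labelled cells, and 10X Chromium at 30 and 35 cycles, with 2000 labelled cells each. The question in each platform was what further PCR cycles do to the number of unique molecular identifiers (UMIs), the random tags that mark each captured molecule. Each group was 1 library, so no difference had a replicate check and no p-value is given. The 95% intervals given cover the error of counting alone, with each count taken as a separate molecule.

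Actin monomers assemble into filaments that carry cell shape, movement and division. Profilin (PFN1) loads monomers onto growing ends, cofilin (CFL1) severs and disassembles old filaments, and the thymosins TMSB4X and TMSB10 hold monomers in reserve. The Arp2/3 complex starts new branches on existing filaments. ACTB and ACTG1 encode the cytoplasmic actins found in nearly every cell, and ACTB is widely used as a reference transcript of high level.

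Both pairs of paralogs could be told apart by sequence, which is why they are shown here. The coding sequences of TMSB4X (chromosome X) and TMSB10 (chromosome 2) have 135 bases with the stop codon and differ at 37 of them (72.6% identity). Capitals mark the bases that differ, read 5′ to 3′ from the GENCODE transcripts.
TMSB4X: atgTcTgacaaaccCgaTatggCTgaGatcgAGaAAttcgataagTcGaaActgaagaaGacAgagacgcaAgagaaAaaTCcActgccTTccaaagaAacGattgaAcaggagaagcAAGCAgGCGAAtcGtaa
TMSB10: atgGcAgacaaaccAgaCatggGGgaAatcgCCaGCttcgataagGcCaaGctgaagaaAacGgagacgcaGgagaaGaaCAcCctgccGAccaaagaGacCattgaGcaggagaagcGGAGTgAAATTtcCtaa
ACTB and ACTG1 are closer, with 99 differing bases in 1128 coding bases (91.2% identity). Their last 30 coding bases differ at the final base of the stop codon alone, shown in capitals.
ACTB: ccctccatcgtccaccgcaaatgcttctaG
ACTG1: ccctccatcgtccaccgcaaatgcttctaA
Other near-identical copies held few counts. Over 14 pseudogenes and paralogs of the 10 genes, human cells held between 5 and 28 counts per library, the highest being 10 counts of ACTA2 in 10X at 35 cycles.

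Barcodes were ranked by their counts, and the labelled number from the top was kept. A human cell had at least 90% human counts. There were 251 of them at 25 cycles, 166 at 30 and 165 at 35 with Drop-seq. With 10X there were 1006 at 30 cycles and 911 at 35. Whole libraries held 494147 to 2311090 counts, and human counts in these cells ranged from 67144 to 199308. The smallest stored entry was 1 count in Drop-seq at 25 cycles, 3 at 30 and 35 cycles, and 2 in 10X, so a low entry was missing rather than 0, and a gene without an entry is only listed at 0. Libraries of a platform shared cells: the 10X libraries had 722 human barcodes in common, Drop-seq at 30 and 35 cycles had 145, and no human barcode was shared between platforms.

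Markers of plasma cells and of T cells are given before any comparison between platforms. Both lists were chosen with earlier results of these data known. In 10X human cells all 10 plasma cell markers had counts, with a sum of 4380 to 6730 counts when scaled to a total of 1000000 human counts (CPM), and 13 to 14 of 15 T cell markers were at 0. In Drop-seq human cells 8 to 9 of the 10 plasma cell markers were at 0, including SDC1 and JCHAIN, and the T cell list summed to 2794 to 3425 CPM. Of the 15 T cell markers 5, 10 and 9 were at 0 at 25, 30 and 35 cycles, CD247 and ZAP70 in each library, while CD3D, CD3G, TRBC1, CD2 and CD1E had counts in each. CD1E alone held 76, 82 and 119 of the 322, 230 and 288 counts of the list. The human cells of Drop-seq therefore went against their label, and platform and human line cannot be told apart in any comparison below.

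One molecule was often counted on several transcripts of a gene. In 10X at 30 cycles the MANE Select transcript of ACTB, its nonsense-mediated decay transcript and a retained-intron transcript held 612 counts each, and in all 231 cells with an entry the first pair had equal entries. The same held for TMSB4X, MYL6 and CFL1, where 3 or 4 transcripts carried nearly equal counts. Gene totals are sums over transcripts and so exceed the molecules. Taking the highest transcript per gene and cell, ACTB had 615 counts in this library in place of 2085, a ratio of 3.39, and all 10 genes together had 869 in place of 2774. TMSB10, with 1 annotated transcript, was counted once.

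ACTB stood higher in 10X than in Drop-seq. It had 276, 110 and 174 counts in Drop-seq at 25, 30 and 35 cycles, which are 2395 CPM (2121 to 2695), 1638 CPM (1346 to 1975) and 1861 CPM (1595 to 2159). In 10X it had 2085 counts at 30 cycles, or 12874 CPM (12327 to 13438), and 1824 counts at 35 cycles, or 9152 CPM (8736 to 9582). Every 10X value was above every Drop-seq value. These counts lay in few Drop-seq cells, 25, 9 and 10, against 232 and 248 cells in 10X, so counting intervals understate the error in Drop-seq.
ACTG1 followed the same order between platforms with smaller gaps. Its Drop-seq levels were 1033, 953 and 738 CPM in order of cycle number, and its 10X levels 2396 and 2795 CPM. It lay in 16, 5 and 4 Drop-seq cells and in 55 and 74 10X cells.

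The monomer-binding genes were all higher in Drop-seq. TMSB4X had 6768, 11274 and 8963 CPM in Drop-seq at 25, 30 and 35 cycles, from 780, 757 and 838 counts in 69, 37 and 38 cells. In 10X it had 12 counts in 2 cells of each library, or 74.1 CPM (38.3 to 129) at 30 cycles and 60.2 CPM (31.1 to 105) at 35. The platforms did not overlap.
TMSB10 had 694, 729.8 and 588 CPM in Drop-seq, against 12.3 CPM from 2 counts in 1 cell of 10X at 30 cycles and 100.3 CPM from 20 counts in 9 cells at 35. PFN1 had 902, 983 and 727 CPM in Drop-seq against 105 and 171 CPM in 10X. CFL1 had 599, 864 and 588 CPM in Drop-seq against 235 and 396 CPM in 10X. For each of these 4 genes, the lowest Drop-seq library stood above the highest 10X library.

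The Arp2/3 subunits went apart. ARPC2, part of the core that contacts the mother filament, had 286, 387 and 385 CPM in Drop-seq and 1013 and 728 CPM in 10X. ARPC3 had 121, 134 and 118 CPM in Drop-seq, each from 2 cells, and was listed at 0 in both 10X libraries. One subunit was thus higher in 10X and the other had counts in Drop-seq human cells alone.
COTL1, a filament-binding protein of the cofilin fold, had at most 7 counts in any library and was listed at 0 in Drop-seq at 30 cycles and 10X at 35. MYL6, a light chain of non-muscle myosin, had 729 CPM at 25 cycles and 781 CPM at 35 in Drop-seq, and 408 and 773 CPM in 10X. In Drop-seq at 30 cycles MYL6 was listed at 0 in the 166 human cells, although 56 counts lay on other barcodes of that library. Its 73 counts at 35 cycles came from 4 cells.

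**Figure D1:**
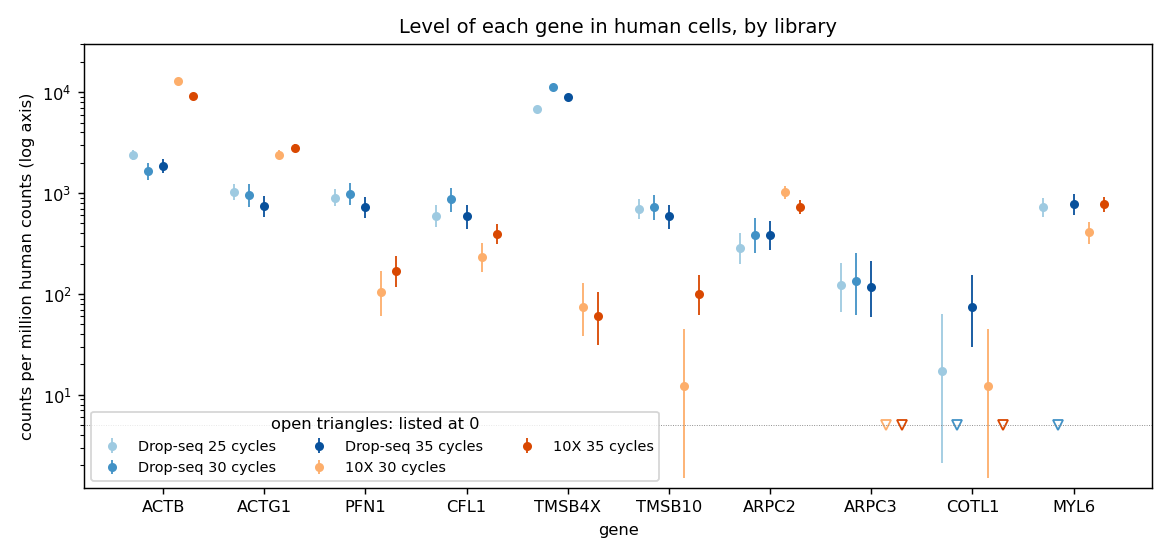
Level of each gene in human cells, in CPM on a log axis. Points are libraries (blue, Drop-seq; orange, 10X), bars are 95% Poisson intervals and open triangles mark genes listed at 0. ACTB, ACTG1 and ARPC2 sit higher in 10X, while TMSB4X, TMSB10, PFN1 and CFL1 sit higher in Drop-seq.

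Human transcripts in mouse cells gave the background. In 10X the mouse cells (806 and 881) held no count of any of the 10 genes, apart from 2 counts of PFN1 in 1 cell at 35 cycles, where a human cell and a mouse cell had the same median depth of 171 counts. The smallest stored entry was 2 in 10X, 3 in Drop-seq at 30 and 35 cycles and 1 at 25. In Drop-seq at 30 and 35 cycles, TMSB4X had entries in 3 of 291 and 3 of 309 mouse cells. ACTB had entries in 0 and 1 of these cells. In Drop-seq at 25 cycles, TMSB4X had entries in 33 of 590 mouse cells (5.59%) and in 69 of 251 human cells (27.5%, 22.1 to 33.5), at median depths of 282.5 and 271 counts. PFN1 had entries in 3.39% of mouse cells and 12.7% of human cells, and ACTB in 2.37% and 9.96%. All 3 shares in human cells stood above those in mouse cells. That order was largely set in advance, since cells were split by their share of human counts. Of the human counts at 25 cycles, TMSB4X made up 0.677% in human cells and 0.740% in mouse cells. ACTB made up 0.239% and 0.370%, and PFN1 0.0902% and 0.162%. On this scale all 3 were higher in mouse cells. For ARPC3 and COTL1 there were 1 or 2 human cells with an entry, and the exact intervals of their shares reached from 0.0966% to 2.85% and from 0.0101% to 2.20%, so a difference from 1 and 0 mouse cells was not detectable at this depth.

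Between 30 and 35 cycles in 10X, none of the members with enough counts to be compared reached 2-fold. A gene was compared at 100 counts or more over both libraries, and called at a 2-fold change in CPM, which is a size limit with no test behind it. Of the 10 genes, 5 were compared and 0 were called, against 118 of 391 human genes (30.2%). The calls over all genes differed by MANE Select length. Of 264 genes of 2000 bases or more, 25 were higher and 66 lower. Of 63 genes from 1000 to under 2000 bases the numbers were 9 and 7, and of 33 shorter genes 1 and 3. All 5 members compared were under 2000 bases. ACTB was lower at 35 cycles (log2 ratio -0.49, interval -0.58 to -0.40), as was ARPC2 (-0.48, -0.81 to -0.15). ACTG1 (0.22, 0.03 to 0.41), CFL1 (0.75, 0.18 to 1.35) and MYL6 (0.92, 0.50 to 1.36) were higher. These intervals are too narrow, since 1 molecule was often counted on several transcripts. On the MANE Select transcripts alone, the intervals of ACTG1 (0.11, -0.24 to 0.47), CFL1 (0.73, -0.25 to 1.83) and ARPC2 (-0.06, -0.60 to 0.48) included 0. Those of ACTB (-0.36, -0.53 to -0.20) and MYL6 (0.96, 0.11 to 1.92) did not. The median of all genes compared lay at -0.19. With it set to 0, the gene ratios became -0.30 for ACTB, -0.28 for ARPC2, 0.41 for ACTG1, 0.94 for CFL1 and 1.11 for MYL6. MYL6 then passed 2-fold. That scaling also moved the calls over all genes from 40 higher and 78 lower to 57 higher and 55 lower. Below 100 counts, TMSB10 went from 2 to 20 counts (2.74, 0.98 to 6.16), PFN1 from 17 to 34 (0.68, -0.18 to 1.63) and TMSB4X from 12 to 12 (-0.30, -1.58 to 0.98). The median ratio over the 5 members compared was 0.22. Over the 8 members with counts in both libraries, at any count, it was 0.45. With entries below 3 left out of every library, this second median was -0.30, over 5 members. ACTB was then at -1.25 and was called, and ARPC2 was at -2.77 with too few counts to be called. CFL1 turned to -0.30 and PFN1 was at 0.04.

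One barcode stood apart in ACTB. In 10X at 30 cycles, 172 of the 175 counts of a single human cell were on ACTB, the only human cell of that library in which 1 gene held 50% or more of the counts. The same barcode had 98 ACTB counts of 103 at 35 cycles, where it ranked 2300 and lay outside the cells. Without it the ACTB ratio was -0.37.

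In Drop-seq, 35 against 30 cycles gave smaller differences. Of the 10 genes, 6 were compared and 0 were called, against 6 of 304 human genes (1.97%). ACTB was at 0.18 (-0.17 to 0.54). ACTG1 (-0.37, -0.88 to 0.14), PFN1 (-0.43, -0.94 to 0.08), CFL1 (-0.55, -1.11 to 0.0032), TMSB4X (-0.33, -0.47 to -0.19) and TMSB10 (-0.31, -0.89 to 0.27) lay below 0. Of these 6 intervals, that of TMSB4X alone lay clear of 0. The median over the 6 members compared was -0.35, beside -0.05 over all genes compared. Over the 8 members with counts in both libraries, at any count, it was -0.32. MYL6 and COTL1 had no counts at 30 cycles and 73 and 7 at 35, for which no fold is given.

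**Figure D2:**
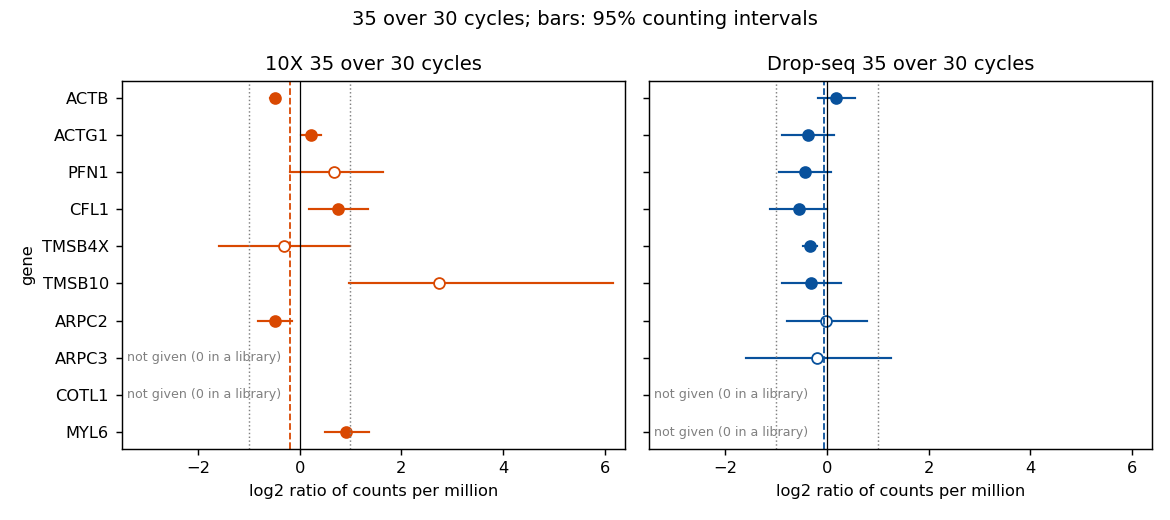
Log2 ratio of CPM at 35 over 30 cycles for each gene, in 10X (left) and Drop-seq (right). Filled points had 100 counts or more over both libraries, open points fewer, bars are 95% counting intervals, dotted lines mark 2-fold and the dashed line the median of all genes compared. The 10X values spread from -0.49 for ACTB to 2.74 for TMSB10, and the Drop-seq values from -0.55 for CFL1 to 0.18 for ACTB.

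The Drop-seq libraries shared enough barcodes to follow genes through 3 cycle numbers in the same set. With entries below 3 left out, a setting chosen after the data were seen, 119 barcodes were human in all 3 libraries. TMSB4X had 8573 CPM (7878 to 9313) at 25 cycles, 11036 CPM (10191 to 11932) at 30 and 9389 CPM (8724 to 10090) at 35, from 21, 30 and 34 barcodes. ACTB had 2526, 1507 and 2093 CPM from 7, 7 and 9 barcodes. Neither of these moved in 1 direction with the number of cycles. PFN1 had 1087 CPM (849 to 1371) at 25 cycles, 806 CPM at 30 and 622 CPM (459.9 to 822) at 35, from 8, 8 and 10 barcodes, and TMSB10 had 934, 753 and 634 CPM from 7 barcodes each. Both were lower at each further step. For PFN1 the intervals at 25 and 35 cycles did not overlap, and for TMSB10 they did (714 to 1200 and 471 to 836). These intervals understate the error, since the counts lay in few barcodes. The 25-cycle library also held more counts in all (2311090, against 528502 and 827152), which cannot be told apart from its cycle number. CFL1 was higher at each step, with 184 CPM (94.9 to 321), 543 CPM and 698 CPM (526 to 908), but these came from 1, 3 and 4 barcodes. In all human cells CFL1, PFN1 and TMSB10 had no such order, each being highest at 30 cycles.
Entries recurred in part. Of 40 barcodes with a TMSB4X entry in any of the 3 libraries, 18 had one in all 3, and for PFN1 the numbers were 11 and 7. For ACTG1 they were 6 and 1, and MYL6 had entries in 3 barcodes, none of them in all 3.

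At 30 cycles the platforms differed in every member compared. ACTB was lower in Drop-seq by 7.82-fold (log2 ratio -2.97, -3.26 to -2.70), ACTG1 by 2.50-fold (-1.32, -1.73 to -0.94) and ARPC2 by 2.57-fold (-1.36, -2.04 to -0.78). TMSB4X was 146-fold higher in Drop-seq (7.19, 6.44 to 8.21). Its 10X level rested on 12 counts in 2 cells, with no entry above the smallest stored value of 2. Its MANE Select transcript alone had 4 counts in 10X and 252 in Drop-seq (7.08, 5.87 to 9.13). So 1 of 4 members was called higher, beside 104 of 288 human genes (36.1%), and 3 of 4 lower, beside 135 (46.9%). In either direction 4 of 4 members were called, near the 83.0% of all genes, and 4 genes are too few to set the shares by direction apart. Relative to the median of all genes compared, -0.60, the ratios were -2.36 for ACTB, -0.72 for ACTG1, -0.76 for ARPC2 and 7.80 for TMSB4X, and the first and last alone remained past 2-fold. Below the 100 counts of the rule, PFN1 was at 3.20 (2.44 to 4.09), CFL1 at 1.87 (1.27 to 2.51) and TMSB10 at 5.58 (3.96 to 8.97).

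Members higher in Drop-seq had shorter transcripts than those higher in 10X, apart from MYL6 at 30 cycles. The MANE Select transcripts of TMSB10, TMSB4X and PFN1 have 461, 622 and 807 bases and those genes were higher in Drop-seq, while ARPC2, ACTB and ACTG1, with 1410, 1812 and 1919 bases, were higher in 10X. CFL1, with 1245 bases, stood between them. ARPC3, with 946 bases, had counts in Drop-seq alone. MYL6, with 708 bases, was listed at 0 in Drop-seq and had 66 counts in 10X at 30 cycles, while its 35-cycle levels were 781 CPM in Drop-seq and 773 CPM in 10X. Over all 265 compared genes with a MANE Select length, the median log2 ratio of Drop-seq over 10X was 3.07 for 56 genes under 1000 bases, 1.35 for 48 genes from 1000 to under 2000 bases and -2.19 for 161 genes of 2000 bases or more (Spearman's rank correlation across genes -0.52, a description of genes that share 2 libraries). Transcripts under 1000 bases held 26.4% of named counts in Drop-seq and 7.65% in 10X at 30 cycles. The part of length in the members' differences was not tested, and it cannot be told apart from the human line.

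**Figure D3:**
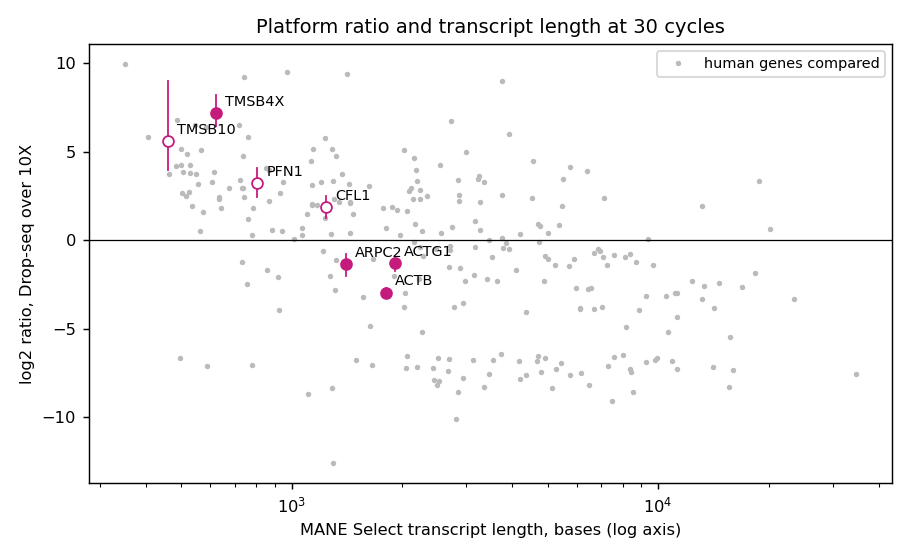
Log2 ratio of Drop-seq over 10X at 30 cycles against the length of the MANE Select transcript in bases, on a log axis. Grey points are the human genes compared, pink points are members (filled, 100 counts or more over both libraries; open, fewer) with 95% counting intervals. TMSB10, TMSB4X, PFN1 and CFL1 lie above 0, and ARPC2, ACTB and ACTG1 below it.

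ACTB isoforms were then taken one by one. Of 23 annotated ACTB transcripts 11 were listed, and 9 reached 1% of the ACTB counts in some library. The gene lies on the minus strand of chromosome 7, and its MANE Select transcript ENST00000646664 spans chr7:5527148-5530601 with 6 exons and 1812 bases. The nonsense-mediated decay transcript ENST00000425660 adds an exon of 41 bases, and the retained-intron transcript ENST00000462494 joins the third and the fourth exon. In each library these 3 transcripts held between 28.2% and 32.1% of the ACTB counts apiece, as near-equal copies of the same entries. The most counted transcript was a member of this trio in every library.
The remaining 6 were partial or rare. ENST00000464611, ENST00000484841, ENST00000645025 and ENST00000647275 have 715, 561, 572 and 556 bases. ENST00000645576 (1009 bases) and ENST00000493945 (1495 bases) are longer. Apart from the first, they had 3 to 5 counts in a library, and in 10X 3 counts of ENST00000493945 at 35 cycles were the only ones.

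**Figure D4:**
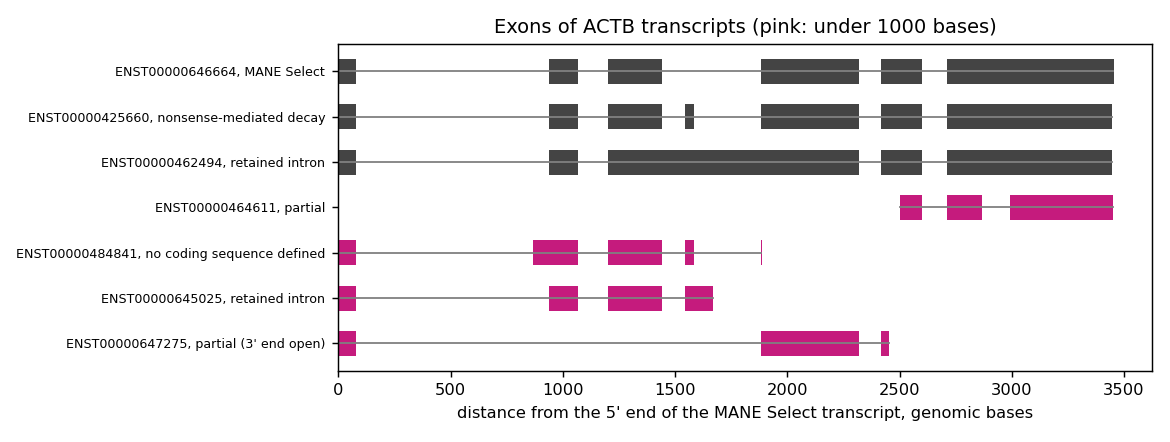
Exons of 7 ACTB transcripts as boxes, by distance in genomic bases from the 5′ end of the MANE Select transcript, with introns as lines. Pink transcripts are under 1000 bases. ENST00000464611 covers the 3′ part of the gene, with a gap inside the last exon of the others, and the other pink transcripts cover the 5′ part.

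ENST00000464611 was the short isoform that differed between cycle numbers. It has 3 exons at chr7:5527151-5528098, its start is tagged as not found, and it lacks a part of the last exon of the MANE Select transcript.
In human cells it had 249 counts in 76 cells of 10X at 30 cycles and 69 counts in 29 cells at 35 cycles. In Drop-seq it had 6, 3 and 4 counts at 25, 30 and 35 cycles. Between the 10X libraries it fell by 2.14 on the log2 scale (interval -2.56 to -1.76), while the MANE Select transcript fell by 0.36 (-0.53 to -0.20). It was the only one of 9 member transcripts compared in 10X to be called, beside 78 of 381 human transcripts called lower (20.5%). In Drop-seq, where it had too few counts, 5 member transcripts were compared and 0 called lower, beside 0 of 243 human transcripts (0%).

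Every 10X cell with an entry of ENST00000464611 also had one of the MANE Select transcript. The entries were equal in 58 of 76 cells at 30 cycles and in 19 of 29 at 35, and the short isoform exceeded the other in no cell. Per 100 MANE Select counts there were 40.7 (36.8 to 44.7) on the short isoform at 30 cycles and 11.8 (9.29 to 14.7) at 35. Without the barcode with the most ACTB counts, which held 42 of the short counts, the value at 30 cycles was 36.4 (32.4 to 40.5). In the 722 barcodes that were human in both libraries the values were 34.9 (30.5 to 39.5) and 13.7 (10.8 to 17.0). The difference between cycle numbers was thus present without that barcode and in the same barcodes. Of 54 such barcodes with the short isoform at 30 cycles, 18 had it again at 35, and for the MANE Select transcript the numbers were 177 and 71.
As a share of all ACTB counts, transcripts under 1000 bases made up 11.9% (10.6 to 13.4) in 10X at 30 cycles and 3.78% (2.96 to 4.76) at 35. In Drop-seq they made up 6.16% (3.63 to 9.68), 11.8% (6.45 to 19.4) and 6.90% (3.61 to 11.7) at 25, 30 and 35 cycles, on 12 to 17 counts. The Drop-seq intervals overlapped one another. Their short counts were on 3 or 4 transcripts, where in 10X all lay on ENST00000464611. At 30 and 35 cycles each of these Drop-seq transcripts had entries in 1 cell alone, and at 25 cycles in 1 to 6 cells. The Drop-seq intervals therefore understate the error.

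**Figure D5:**
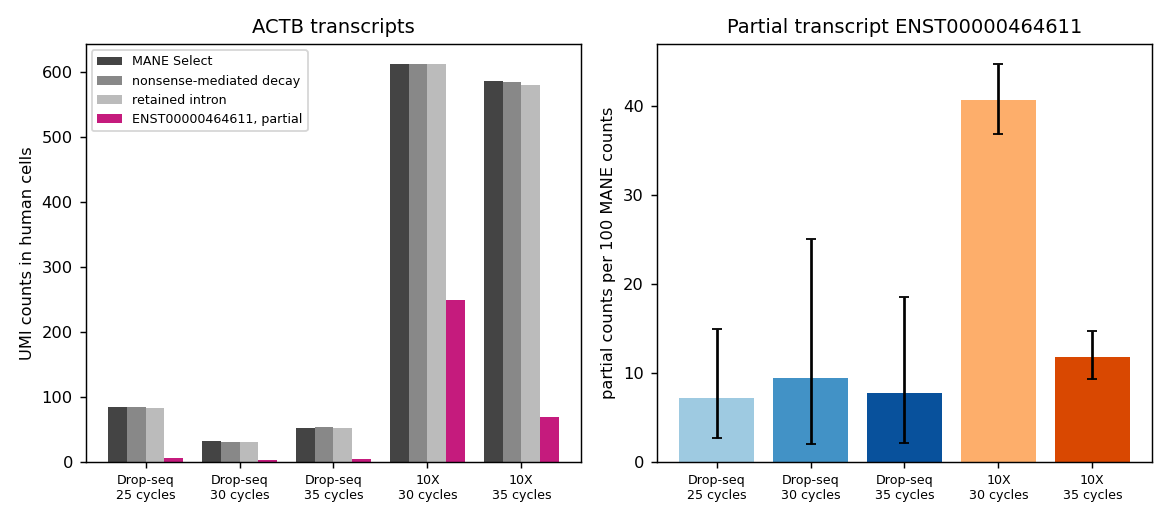
Left, UMI counts in human cells of 4 ACTB transcripts by library; right, counts of the partial transcript ENST00000464611 per 100 counts of the MANE Select transcript, with 95% Clopper-Pearson intervals. The 3 long transcripts have near-equal bars in each library, and the partial transcript stands at 40.7 per 100 in 10X at 30 cycles and at 11.8 at 35.

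Transcripts called lower at 35 cycles in 10X were seldom short. Among compared transcripts under 1000 bases 4 of 65 were called lower (6.15%), against 67 of 286 at 1000 bases or more (23.4%). Among those whose start is tagged as incomplete, as in ENST00000464611, it was 2 of 11.
ARPC2 also had transcripts with fewer counts at 35 than at 30 cycles in 10X, all at low counts. Its retained-intron transcript ENST00000470146 went from 17 counts in 8 cells to 2 in 1, and ENST00000477992, with no coding sequence defined, from 17 counts in 8 cells to 5 in 2. Its complete transcripts ENST00000295685 and ENST00000315717 went from 61 to 72 and from 56 to 66 counts. Their log2 ratios of CPM were -0.06 (-0.57 to 0.46) and -0.06 (-0.60 to 0.48), so the lower gene sum at 35 cycles was not seen on them. ENST00000470146 and ENST00000477992 have over 2000 bases (2226 and 2221), and none of the pair reached 100 counts. Of their 8 cells each at 30 cycles, 5 and 6 also had MANE Select ENST00000315717. They exceeded it in 3 and 2 cells, unlike ENST00000464611, which exceeded its MANE Select transcript in none.
ACTG1 held its counts on MANE Select ENST00000573283 (117 and 156 counts), the retained-intron ENST00000576917 (94 and 152) and ENST00000575842 (85 and 147), while ENST00000575087 went from 44 to 33 counts. In Drop-seq ENST00000573283 was its most counted transcript too, at 30 cycles together with ENST00000575842 at 16 counts.

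For the other members the most counted transcripts were annotated as protein coding, apart from COTL1 in 10X. PFN1 was counted on ENST00000225655 (at least 88.2% of its counts in each library), TMSB10 on ENST00000233143, TMSB4X on ENST00000451311 and in 10X equally on ENST00000380635 and ENST00000380636. CFL1 was counted most on ENST00000525451, in 10X equally with ENST00000308162. ARPC2 was counted most on ENST00000295685 in 10X and on ENST00000315717 in Drop-seq at 35 cycles, with equal counts of both in the other Drop-seq libraries. ARPC3 was counted most on ENST00000228825. COTL1 was counted on ENST00000262428 in Drop-seq at 35 cycles, equally on it and ENST00000564057 at 25 cycles, and on ENST00000567278, with no coding sequence defined, with 2 counts in 10X at 30 cycles. MYL6 spread over ENST00000550697, ENST00000547649, ENST00000348108 and ENST00000293422, which carried 14 to 39 counts each where the gene was found.

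Beyond the 10 members, 50 further genes of actin dynamics were counted. In 10X 42 of them had counts in either library and 5 were compared between cycles, 0 of them called higher and 1 lower, beside the 30.2% of all genes called in either direction. That gene was CDC42, a switch protein that acts upstream of Arp2/3, with 227 and 99 counts (log2 ratio -1.49, -1.85 to -1.15). The tropomyosin TPM3 came next from below (-0.43, -0.81 to -0.05). ARPC5 (0.09, -0.29 to 0.48) and the tropomyosin TPM4 (0.23, -0.17 to 0.64) lay above 0. In Drop-seq 2 were compared and 0 called, beside 1.97% of all genes, among them the myosin light chain MYL12A, at 0.45 with an interval that included 0. The medians were 0.09 in 10X and 0.17 in Drop-seq, beside -0.19 and -0.05 over all genes compared. Between the platforms at 30 cycles 4 were compared, and 2 of them, CDC42 and ARPC5, were lower in Drop-seq by 2-fold or more, beside 46.9% of all genes (-3.17, -4.31 to -2.33, and -1.38, -2.28 to -0.65).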

How the data were processed

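The authors deposited raw UMI counts per barcode and Ensembl transcript for 5 samples, not normalized. Their methods name nanopore reads mapped with minimap2 to human and mouse transcripts, and UMI collapsing with UMI-tools or, for Drop-seq, possibly with their own homotrimer script; which one made these files is not given in the sources used here, nor is the filter that left the smallest stored values. Stored barcodes had 10 bases. The labelled cycle numbers are used. For 10X the study's main text gives lower ones, and its methods give cycles before and after the amplified product was split that add up to the labelled numbers; for Drop-seq its main text lists the labelled numbers among others. Labels name JJN3 as the human line, while a legend and the cell culture section name another.

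Identifiers without version were matched to GENCODE 44 (hg38); 92.1% to 93.5% of human counts in human cells were named. Scripts ran under scipy 1.17.1, pandas 2.3.3, numpy 2.4.6 and Python 3.11.15. CPM used all human counts of human cells and a pseudocount of 0.5 counts. Intervals are exact (Poisson, Clopper-Pearson, conditional binomial) and treat UMI counts as independent molecules, which they are not where 1 molecule is counted on several transcripts. The code was tested on simulated data. No doublet caller was run, and cells with under 90% of 1 species were left out. The sample with read numbers alone was not used.

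The members and lists were chosen with earlier results of these data known. Named were all members, their most counted transcripts, ACTB transcripts at 1% or more of the gene, transcripts called, and the highest and lowest of the further actin genes, 1 excepted. That gene is not reported here.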

Additional observations from a re-analysis of the deposited data

Results flagged for a closer look

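ACTB, ACTG1 and CFL1 went in opposite directions on the platforms between 30 and 35 cycles, with 1 library per cycle number and platform. The log2 ratio in 10X minus that in Drop-seq was -0.67 for ACTB, 0.59 for ACTG1 and 1.30 for CFL1. The difference was not tested, since there were no replicates. For ACTG1 the counting intervals of the ratios overlapped, and for ACTB and CFL1 they did not. These intervals come from sums over transcripts and are too narrow, since 1 molecule was often counted on several transcripts. The lack of overlap therefore does not set the platforms apart. With the highest transcript per gene and cell, ACTB was at -0.31 in 10X and 0.09 in Drop-seq, and CFL1 at 0.59 and -0.52. The opposite directions did not hold under every alternative. With entries below 3 left out, CFL1 was at -0.30 in 10X and -0.55 in Drop-seq, and in the deeper 50% of the labelled cells it was at 1.22 and 0.02. At a purity of 95%, ACTB was at -0.50 in 10X and -0.13 in Drop-seq. Behind the Drop-seq ratios of these genes stood between 4 and 10 human cells per library.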

How the results depend on the processing

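No paired analysis was possible because each group was 1 library. In 10X the number of members called went from 0 to 1 with all barcodes of at least 100 counts as cells (CFL1), with entries below 3 left out (ACTB) and with the median of ratios (MYL6); with entries below 3 left out, 48.9% of all genes were called and the members' median ratio was -0.30. In Drop-seq it went from 0 to 1 with a minimum of 50 counts (MYL6), where 8.10% of all genes were called. Between platforms the 4 members called became 2 with entries below 3 left out, with the median of ratios, or with the highest transcript per gene and cell, and 8 with a minimum of 50 counts. Barcodes shared by a pair gave no value between platforms or for 25 cycles. The share of short ACTB in 10X at 30 cycles was 13.7% in the deeper 50% of the labelled cells, 10.4% in shared barcodes and 15.2% without entries below 3; at 35 cycles it was 6.07% without those entries. In Drop-seq it was 0% at 30 cycles in the deeper 50% of the labelled cells, and at a purity of 95% it was 2.92% at 35 cycles and 1.43% at 25. Counting every transcript that is not coding or is incomplete gave 70.6% and 67.6% in 10X at 30 and 35 cycles and 67.8%, 70.9% and 67.2% in Drop-seq at 25, 30 and 35, by construction, since 2 of the 3 copies of each entry then count. Of 166 alternative values of single members' ratios, 153 stayed within the main counting interval. The highest-transcript and left-out-barcode settings were chosen after seeing the data. Depth limits ARPC3, COTL1, and TMSB4X and TMSB10 in 10X.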
